A study of Arabidopsis thaliana with 4 samples.

Results

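The 45 loci described here, out of 33602 annotated Arabidopsis thaliana loci, gained small RNA reads when the RNA decay mutations ein5-1 and ski2-3 were added to a plant that lacks RDR6. The same gain was not called when those mutations were added to a wild-type plant. A locus was a member when the triple mutant held at least 50 reads there and its reads, with 1 read added and divided by the library total, were at least 4-fold above those of rdr6-11. It was left out when the double mutant held at least 50 reads and was at least 4-fold above Col-0 on the same scale, and 7 loci were left out by name. The members were thus chosen by the reads of the same 4 libraries, so the folds below describe them and carry no test.

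The triple mutant is rdr6-11 ein5-1 ski2-3, and its comparison line is rdr6-11, which carries the RDR6 mutation without the decay mutations. The double mutant is ein5-1 ski2-3, and its comparison line is Col-0, the wild type. Each genotype is 1 library of RNA below 200 nt from aerial tissue of 18-day-old plants, grown at 22 °C with 16 h of light and 8 h of dark. How many plants went into a library is not given in the sources used here.

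EIN5 (XRN4) is the cytoplasmic exonuclease that degrades decapped mRNA from the 5′ end, and SKI2 is a helicase that feeds mRNA to the cytoplasmic exosome, which degrades from the 3′ end. In plants that lack both routes, aberrant mRNA fragments can serve as templates for RDR6, an RNA-dependent RNA polymerase that copies them into double-stranded RNA for Dicer to cut into small interfering RNAs. The table has no read size and no strand, so siRNAs and fragments of the mRNA itself were counted together.

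The triple mutant held 877589 reads, rdr6-11 878632, the double mutant 621515 and Col-0 808276. At these depths 50 reads in the triple mutant are at the same RPM (reads scaled to the library total) as 35.4 reads in the double mutant, so the same minimum asks for a higher level in the double mutant. EIN5, SKI2 and RDR6 held between 0 and 4 reads in every library and do not check the genotypes. The 8 trans-acting siRNA (TAS) loci, which need RDR6, held 455 reads in the triple mutant and 111 in rdr6-11, against 15530 in the double mutant and 57730 in Col-0. For the tissue, 53 of 54 listed photosynthesis genes held at least 10 reads in some library, against 1 of 6 flower markers and 1 of 5 root markers. The locus lengths that the authors divided by were identical within each pair (triple mutant and rdr6-11, double mutant and Col-0) but differed between the pairs at 1447 of 20709 loci with reads in both pairs. The pairs coincide with the RDR6 genotype, so a difference in handling and the loss of RDR6 cannot be told apart. Of the members, TCH3 and PETC have lengths that differ between the pairs.

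The members' reads do not bear out a description as loci gained in the absence of RDR6 alone. Most of them also held more reads in the double mutant than in the wild type: 39 of 45 had the higher RPM there, and at 31 the 95% counting interval of the fold lay above 1. Among all 614 loci with at least 50 reads in the triple mutant, 29.8% had such an interval, and 55.9% had a fold below 1 with 1 read added. Of the 45 members 43 are protein-coding. The 311 protein-coding loci among the 614 had a median log2 fold of 0.74, against -0.23 over all 614. At 21 of the 45 members the double mutant was at least 4-fold above Col-0, and these loci escaped the exclusion because they held 24 to 49 reads there, short of the minimum. They make up 46.7% of the members, beside 18.1% of the 614 loci and 34.4% of the 311 protein-coding ones among them, which were not chosen by these counts as the members were. With a minimum scaled to the smaller library, 13 of the 21 would have been excluded. In whole aerial tissue, fewer cells of a type and less RNA per cell cannot be told apart.

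**Figure D1:**
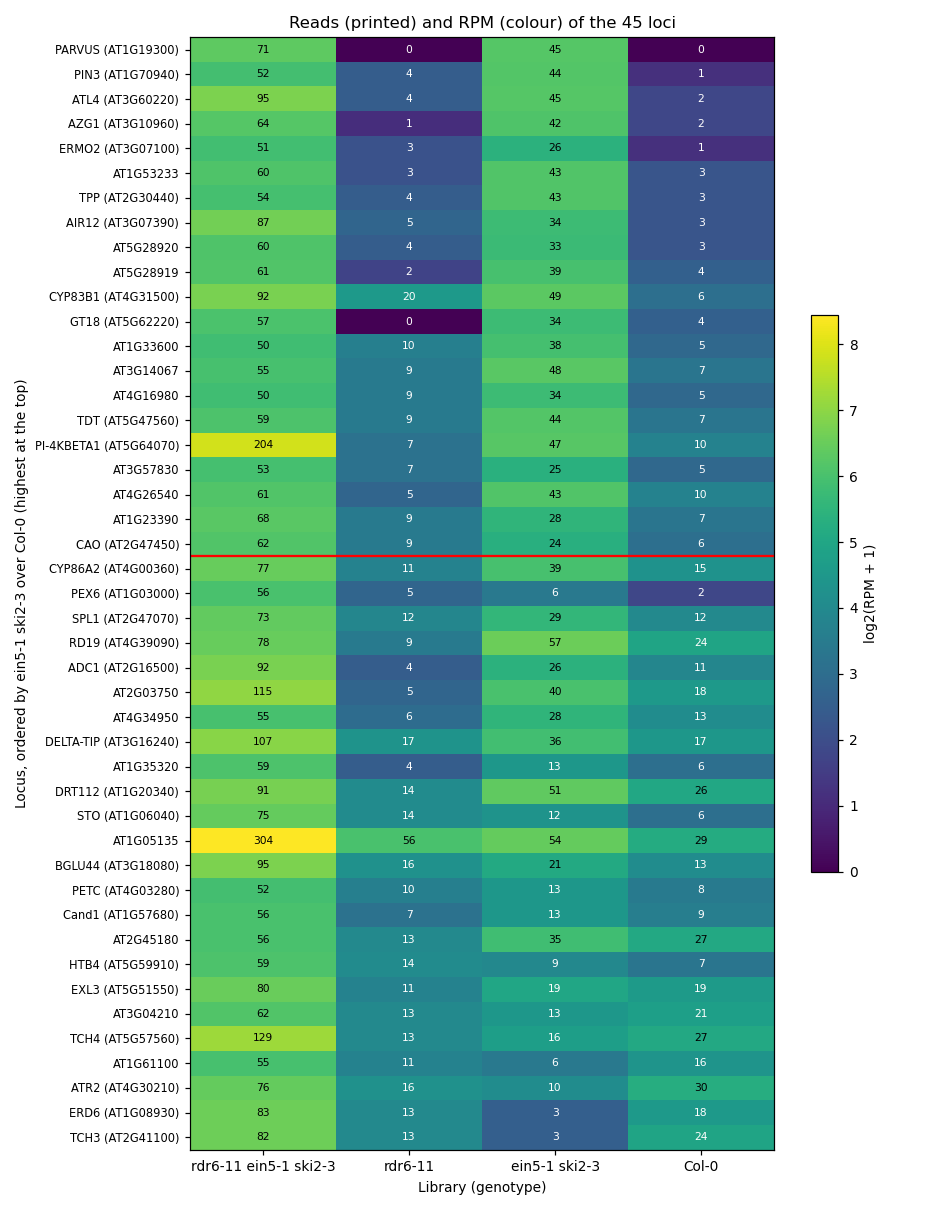
Reads (printed) and log2(RPM + 1) (colour) of the 45 loci in the 4 libraries, 1 library per genotype, ordered by the fold of ein5-1 ski2-3 over Col-0. Above the red line stand the 21 loci at which ein5-1 ski2-3 was at least 4-fold above Col-0, and below it the 24 under 4-fold, ending with TCH3, which held 82 reads in the triple mutant, 13 in rdr6-11, 3 in ein5-1 ski2-3 and 24 in Col-0.

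In sum the 45 loci held 3533 reads in the triple mutant and 431 in rdr6-11, an 8.21-fold difference (95% counting interval 7.42 to 9.09). The same loci held 1360 reads in the double mutant and 492 in Col-0, a 3.59-fold difference (3.24 to 3.99). As shares of the library these were 0.403% in the triple mutant, 0.0491% in rdr6-11, 0.219% in the double mutant and 0.0609% in Col-0. Each genotype was sequenced once, so there is no replicate against which to judge a difference, and PCR copies are not independent molecules, so the intervals cover counting error alone. The loci were thinly read: their reads ran from 50 to 304 (median 62) in the triple mutant and from 0 to 56 (median 9) in rdr6-11. In the double mutant they ran from 3 to 57 (median 34), and in Col-0 from 0 to 30 (median 7).

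By the rule itself all 45 loci were higher in the triple mutant than in rdr6-11, as were 16.4% of the 718 loci with 50 reads in either library (118 loci in all, of which 70 were also higher in the double mutant than in the wild type). The median log2 fold of the 45 was 2.76, with 1 read added, beside 0.39 over the 614 loci and 1.39 over the protein-coding ones. For the double mutant over Col-0 the median log2 fold of the 45 was 1.60, beside -0.23 over the 614 loci and 0.74 over the protein-coding ones. By the rule 0 of the 45 could be called higher in that comparison, beside 26.8% of 653 loci, and 0 were called lower, beside 9.04%, a call that needs 50 reads in Col-0, where the members held at most 30. With 1 read added, HTB4 at 4.00-fold, AT2G45180 at 4.08-fold, CYP83B1 at 4.43-fold, AT3G04210 at 4.51-fold and ATR2 at 4.53-fold stood just inside the fold threshold. Just outside, also with 1 read added, stood RBCS2B at 3.95-fold, FTSH11 and PIP1C at 3.94-fold, TAS1C at 3.91-fold and AT1G76065 at 3.85-fold. Another 10 loci met the folds with 45 to 49 reads in the triple mutant. Of the 7 loci left out by name, RBCS1A (108 reads in the triple mutant and 23 in rdr6-11), TAS2 (153 in the triple mutant and 26 in rdr6-11) and TAS3A (103 in the triple mutant and 22 in rdr6-11) met the other criteria, and PSAD-1, AT2G18560, AT1G06000 and REV were higher in the double mutant than in the wild type and would not have been members.

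**Figure D2:**
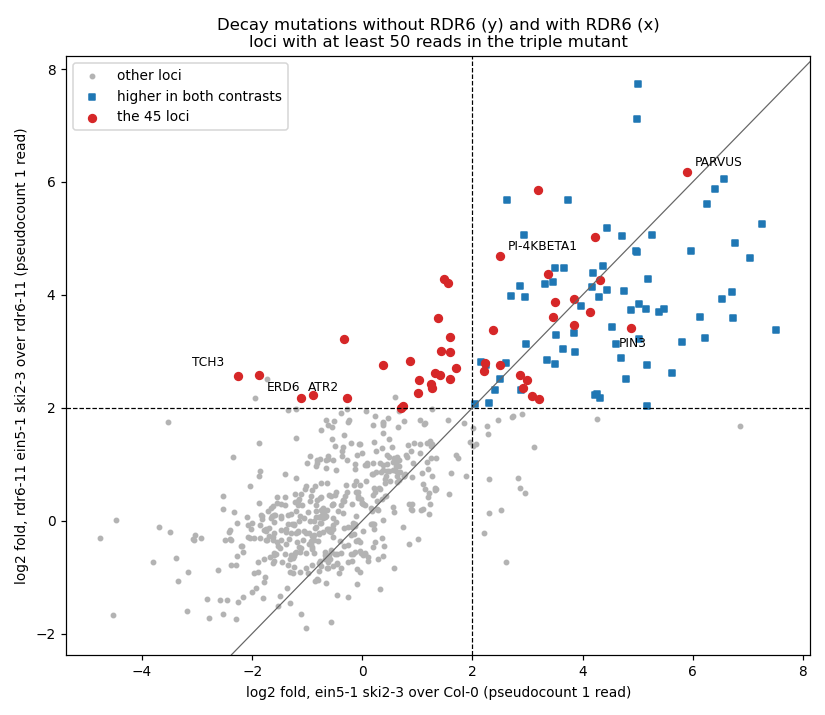
log2 fold of the triple mutant over rdr6-11 (vertical axis) against log2 fold of ein5-1 ski2-3 over Col-0 (horizontal axis), each with 1 read added, for the 614 loci with at least 50 reads in the triple mutant. Dashed lines mark 4-fold and the grey line equal folds; the 45 loci (red) reach from TCH3 at -2.26 to PARVUS at 5.90 on the horizontal axis, and the 70 loci higher in both contrasts (blue) from 2.05 to 7.52.

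Whether a locus gained more without RDR6 than with it is a question about the ratio of both folds, the fold of the triple mutant over rdr6-11 divided by that of the double mutant over Col-0. This ratio had a 95% counting interval above 1 at 18 of the 45 loci, or 40%, and an interval that held 1 at the other 27. Across the 614 loci the interval lay above 1 at 44.0%, and across the 311 protein-coding loci at 34.1%. The ratio is built from the same 4 counts that chose the members, so these shares are a description and nothing is read from their difference. Of the 18 loci, 17 were under 4-fold in the double mutant over Col-0, and the exception was PI-4KBETA1. The 17 were TCH3, ERD6, TCH4, ATR2, AT1G61100, AT3G04210, AT2G03750, ADC1, EXL3, AT1G35320, Cand1, AT4G34950, BGLU44, RD19, AT2G45180, plastocyanin and the pseudogene AT1G05135, each described below. The intervals leave the choice of members out of account.

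**Figure D3:**
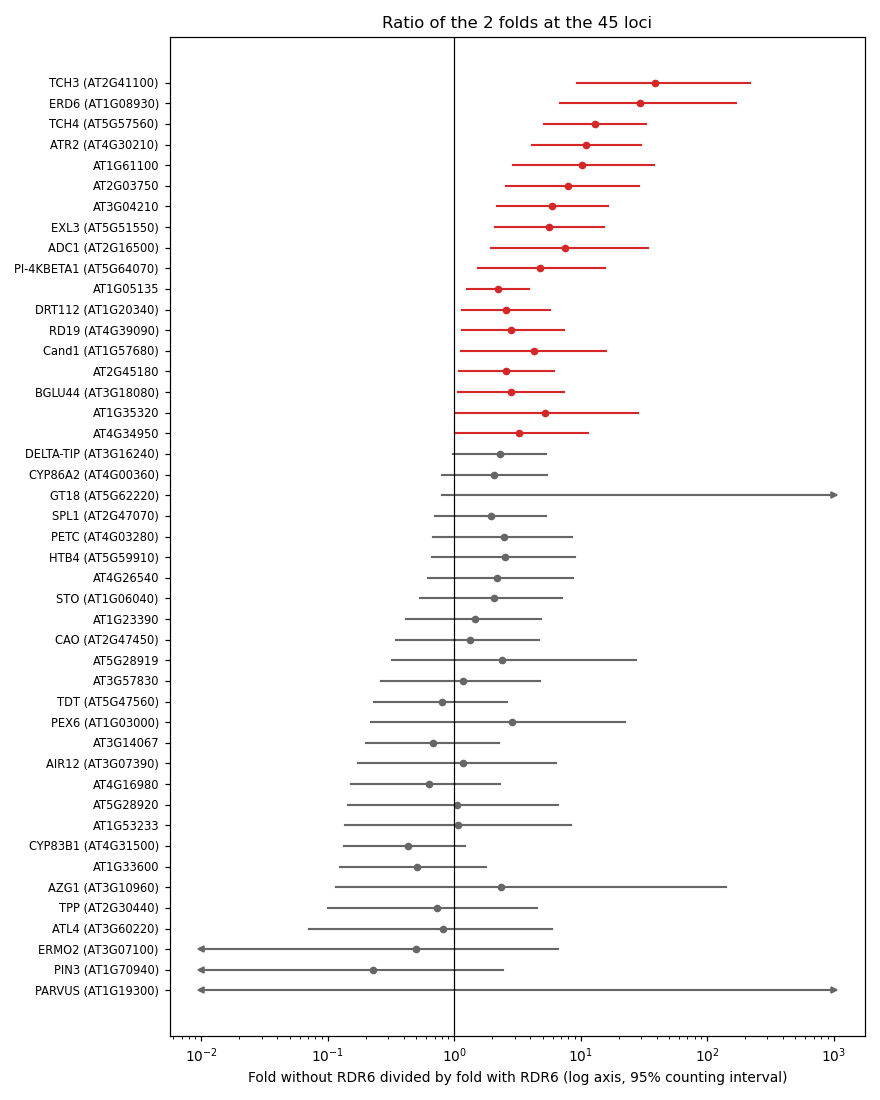
Ratio of the fold without RDR6 (triple mutant over rdr6-11) to the fold with RDR6 (ein5-1 ski2-3 over Col-0) at the 45 loci, on a log axis, with exact conditional 95% counting intervals; arrowheads mark intervals that run past the axis, and PARVUS and XLT2 (listed as GT18) have no point because a library held 0 reads. At 18 loci (red) the interval lies above 1, with TCH3 the highest at 38.8.

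At 6 loci the folds ran in opposite directions in both RDR6 backgrounds, with more RPM in the triple mutant than in rdr6-11 and fewer in the double mutant than in the wild type. A fold below 1 in the double mutant was common in the table, at 55.9% of the 614 loci. TCH3 (AT2G41100), a calmodulin-like calcium sensor named for its induction by touch, held 82 reads in the triple mutant and 13 in rdr6-11 (6.32-fold, 3.50 to 12.4). In the double mutant it held 3 reads against 24 in Col-0, a 0.163-fold level (0.0313 to 0.535). The triple mutant stands above the other libraries and the double mutant below them all. TCH3 overlaps a pair of annotated genes on the opposite strand that were not counted as loci, so its count may include reads from them. Of its 21-base words, 21.6% are repeated in the genome, a share that includes repeats within the gene itself.

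ERD6 (AT1G08930), a sugar transporter-like protein induced by dehydration, followed the same order with 83 reads in the triple mutant and 13 in rdr6-11 (6.39-fold, 3.54 to 12.5). It held 3 reads in the double mutant and 18 in Col-0 (0.217-fold, 0.0409 to 0.742). ATR2 (AT4G30210), the P450 reductase that passes electrons to cytochrome P450 enzymes such as those of phenylpropanoid synthesis, held 76 reads in the triple mutant and 16 in rdr6-11 (4.76-fold, 2.75 to 8.74). Its reads were 10 in the double mutant and 30 in Col-0 (0.433-fold, 0.189 to 0.911). These 3 loci were the ones at which the interval in the double mutant lay wholly below 1, and 41.2% of the 614 loci had such an interval.

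At the other 3 the interval in the double mutant held 1. TCH4 (AT5G57560), the xyloglucan-modifying wall enzyme XTH22, also named for induction by touch, held 129 reads in the triple mutant and 13 in rdr6-11 (9.93-fold, 5.61 to 19.2). It held 16 in the double mutant and 27 in Col-0 (0.771-fold, 0.388 to 1.48). AT1G61100 and AT3G04210, which encode disease resistance proteins of the TIR and TIR-NBS class, held 55 and 62 reads in the triple mutant against 11 and 13 in rdr6-11. In the double mutant they held 6 and 13, against 16 and 21 in Col-0. The ratio of the folds was 38.8 (9.37 to 218) at TCH3, 29.5 (6.90 to 169) at ERD6, 12.9 (5.15 to 32.7) at TCH4 and 11.0 (4.13 to 29.9) at ATR2. It was 10.3 (2.90 to 38.3) at AT1G61100 and 5.93 (2.17 to 16.4) at AT3G04210. Looked up after these values were seen, the other TCH genes were too thinly read to compare: TCH2 held 9 reads in the triple mutant and 5 in rdr6-11, and 1 in the double mutant and 0 in Col-0. CAM2 (TCH1) held 4 reads in the triple mutant and 0 in rdr6-11, and 3 in the double mutant and 2 in Col-0.

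The promoters of TCH3, ERD6 and ATR2 are shown because their interval in the double mutant over Col-0 lay wholly below 1. Their order of libraries, highest in the triple mutant, then Col-0, rdr6-11 and the double mutant, was also that of AT1G61100. Each promoter runs from 250 bases before to 50 bases after the annotated gene start, from the RefSeq TAIR10.1 genome and annotation, 5′ to 3′ on the gene's strand. Capitals mark CGCG, the core of the CAMTA-type element of calcium and touch responses, and CCGAC or its reverse complement GTCGG, the core of the dehydration-responsive element.
TCH3, chr2:17136787-17137086, plus strand: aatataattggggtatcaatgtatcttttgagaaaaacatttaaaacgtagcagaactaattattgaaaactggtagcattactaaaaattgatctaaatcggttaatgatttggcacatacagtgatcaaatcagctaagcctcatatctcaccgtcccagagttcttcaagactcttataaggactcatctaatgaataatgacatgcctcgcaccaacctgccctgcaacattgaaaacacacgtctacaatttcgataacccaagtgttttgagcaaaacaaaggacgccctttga
ERD6, chr1:2873050-2873349, plus strand: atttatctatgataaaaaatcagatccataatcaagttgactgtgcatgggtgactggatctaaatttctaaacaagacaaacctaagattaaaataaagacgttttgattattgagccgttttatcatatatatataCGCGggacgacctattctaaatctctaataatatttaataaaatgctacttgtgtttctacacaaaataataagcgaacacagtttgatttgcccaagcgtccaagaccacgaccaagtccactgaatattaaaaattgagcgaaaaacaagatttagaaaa
ATR2, chr4:14796445-14796744, plus strand: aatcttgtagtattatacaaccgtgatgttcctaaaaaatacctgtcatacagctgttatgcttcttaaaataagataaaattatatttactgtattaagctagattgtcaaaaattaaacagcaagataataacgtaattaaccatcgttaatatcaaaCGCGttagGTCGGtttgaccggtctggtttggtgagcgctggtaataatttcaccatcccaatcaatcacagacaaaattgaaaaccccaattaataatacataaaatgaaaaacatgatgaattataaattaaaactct
TCH3 holds neither motif in this window, ERD6 holds CGCG, and ATR2 holds both. CGCG stood in 6 of 43 member promoters, beside 13.0% of 26711 protein-coding promoters, and CCGAC on either strand in 7 of 43, beside 3998 of the 26711. The G-box CACGTG stood in 1 of 43, beside 7.79%. These are matches of letters in windows of 300 bases, searched on both strands, with no measured binding.

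At 21 loci the gain was present in both RDR6 backgrounds. PARVUS (AT1G19300), a glycosyltransferase of xylan synthesis in the secondary wall, held 71 reads in the triple mutant and 0 in rdr6-11, and 45 in the double mutant and 0 in Col-0. Where a library held 0 reads, 3 reads (the upper limit for a zero count) stand in its place in that library. With 3 reads for the 0, PARVUS was 23.7-fold higher in the triple mutant than in rdr6-11, with an interval from 18.8. In the double mutant it was 19.5-fold higher than in the wild type, with an interval from 15.2. XLT2 (AT5G62220, listed as GT18), which adds galactose side chains to xyloglucan, held 57 reads in the triple mutant and 0 in rdr6-11. That was 19.0-fold with 3 reads for the 0, with an interval from 15. It held 34 in the double mutant and 4 in Col-0 (11.1-fold, 3.94 to 42.9). Both wall genes were high in both libraries with the decay mutations and at 0 to 4 reads in both without them. AT4G16980, an arabinogalactan-protein gene, held 50 reads in the triple mutant and 9 in rdr6-11, and 34 in the double mutant and 5 in Col-0. EXL3 (AT5G51550), an EXORDIUM-like gene, differed, with 80 reads in the triple mutant and 11 in rdr6-11 but 19 in the double mutant and 19 in Col-0.

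**Figure D4:**
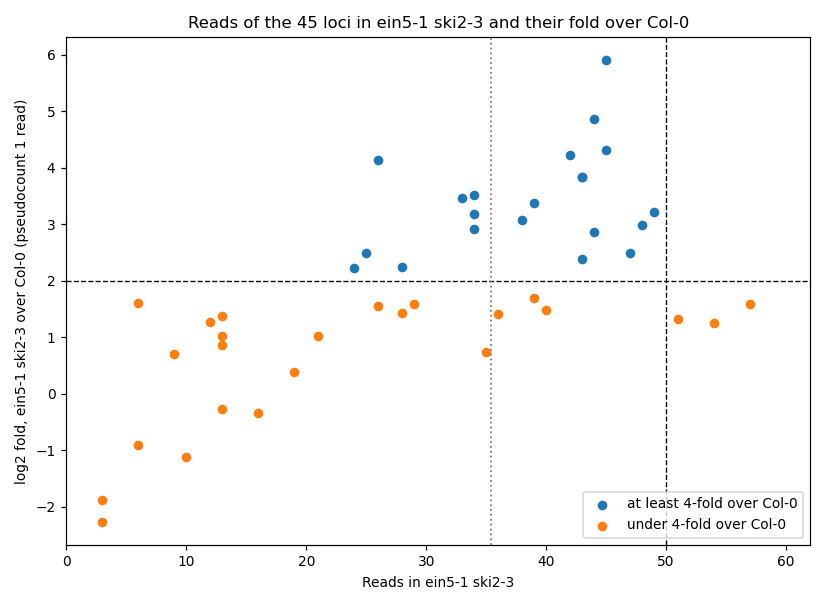
Reads of the 45 loci in ein5-1 ski2-3 (horizontal axis) against their log2 fold over Col-0 with 1 read added (vertical axis). The dashed lines mark the exclusion (50 reads and 4-fold) and the dotted line 35.4 reads, the same RPM as 50 reads in the triple mutant; 21 loci (blue) lie above 4-fold with 24 to 49 reads, and 3 loci of the other 24 (orange) reach 50 reads.

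Among genes of hormone and solute transport, PIN3 (AT1G70940), an auxin efflux carrier of tropic growth, held 52 reads in the triple mutant and 4 in rdr6-11 (13.0-fold, 4.79 to 49.6). It held 44 reads in the double mutant and 1 in Col-0 (57.2-fold, 9.75 to 2311), so its point fold was larger with RDR6 than without, and the ratio of the folds held 1 (0.227, 0.00452 to 2.43). AZG1 (AT3G10960), a purine and cytokinin transporter, held 64 reads in the triple mutant and 1 in rdr6-11, and 42 in the double mutant and 2 in Col-0. AIR12 (AT3G07390), an auxin-induced cytochrome b of the cell surface, held 87 reads in the triple mutant and 5 in rdr6-11, and 34 in the double mutant and 3 in Col-0. TDT (AT5G47560), the tonoplast malate transporter, held 59 reads in the triple mutant and 9 in rdr6-11, and 44 in the double mutant and 7 in Col-0. PIN3, AZG1, AIR12 and TDT were each at least 4-fold higher in both libraries with the decay mutations than in their comparison lines. The aquaporin DELTA-TIP (AT3G16240) of the vacuolar membrane stayed under 4-fold in the double mutant, with 107 reads in the triple mutant, 17 in rdr6-11, 36 in the double mutant and 17 in Col-0. AT4G34950, of the major facilitator superfamily, held 55 reads in the triple mutant and 6 in rdr6-11, and 28 in the double mutant and 13 in Col-0. The sugar transporter-like ERD6 is described above.

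PI-4KBETA1 (AT5G64070), a phosphatidylinositol 4-kinase of Golgi traffic, held 204 reads in the triple mutant and 7 in rdr6-11 (29.2-fold, 13.9 to 73.5). It held 47 in the double mutant and 10 in Col-0 (6.11-fold, 3.05 to 13.6), and the ratio of the folds was 4.77 (1.53 to 15.5). PEX6 (AT1G03000), an ATPase of peroxisome biogenesis, held 56 reads in the triple mutant and 5 in rdr6-11 (11.2-fold, 4.53 to 35.9), against 6 in the double mutant and 2 in Col-0 (3.90-fold, 0.698 to 39.5). SEC24A (AT3G07100, listed as ERMO2), a coat protein of vesicles that leave the endoplasmic reticulum, held 51 reads in the triple mutant and 3 in rdr6-11, and 26 in the double mutant and 1 in Col-0.

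Of the signalling genes, ATL4 (AT3G60220), a RING-type E3 ubiquitin ligase, held 95 reads in the triple mutant and 4 in rdr6-11 (23.8-fold, 8.99 to 89.1), and 45 in the double mutant and 2 in Col-0 (29.3-fold, 7.64 to 249). The leucine-rich repeat kinase genes AT4G26540 and AT3G57830 held 61 and 53 reads in the triple mutant and 5 and 7 in rdr6-11. They held 43 and 25 in the double mutant and 10 and 5 in Col-0. The leucine-rich repeat gene AT1G33600 held 50 reads in the triple mutant, 10 in rdr6-11, 38 in the double mutant and 5 in Col-0, and 12.0% of its 21-base words are repeated in the genome. AT1G23390, a kelch-type F-box gene, held 68 reads in the triple mutant and 9 in rdr6-11, and 28 in the double mutant and 7 in Col-0. These 5 genes were all at least 4-fold higher in the double mutant than in the wild type. Cand1 (AT1G57680), a candidate G-protein coupled receptor, was not: it held 56 reads in the triple mutant and 7 in rdr6-11, against 13 in the double mutant and 9 in Col-0 (1.88-fold, 0.743 to 4.98).

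Among enzyme genes, ADC1 (AT2G16500), arginine decarboxylase of polyamine synthesis, held 92 reads in the triple mutant and 4 in rdr6-11 (23.0-fold, 8.69 to 86.3), and 26 in the double mutant and 11 in Col-0 (3.07-fold, 1.47 to 6.89). AT2G03750 held 115 reads in the triple mutant and 5 in rdr6-11 (23.0-fold, 9.59 to 72.3), and 40 in the double mutant and 18 in Col-0 (2.89-fold, 1.62 to 5.36). The ratio of the folds was 7.49 (1.97 to 34.2) at ADC1 and 7.97 (2.59 to 28.8) at AT2G03750. Both were low in rdr6-11, and at AT2G03750 rdr6-11 lay below Col-0 (0.256-fold, 0.0742 to 0.714).

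CYP83B1 (AT4G31500), which channels indole-3-acetaldoxime into indole glucosinolates, held 92 reads in the triple mutant and 20 in rdr6-11 (4.61-fold, 2.82 to 7.89). It held 49 in the double mutant, 1 read short of the minimum, and 6 in Col-0 (10.6-fold, 4.55 to 30.3). Its rdr6-11 level was above Col-0 (3.07-fold, 1.19 to 9.33). AT3G14067, a subtilase, held 55 reads in the triple mutant and 9 in rdr6-11, and 48 in the double mutant and 7 in Col-0. CYP86A2 (AT4G00360), a cutin-forming fatty acid hydroxylase, held 77 reads in the triple mutant and 11 in rdr6-11, and 39 in the double mutant and 15 in Col-0. The cysteine protease RD19 (AT4G39090) held 78 reads in the triple mutant and 9 in rdr6-11, and 57 in the double mutant and 24 in Col-0. RD19 had the most reads of any member in the double mutant, where its fold over Col-0 was 3.09 (1.89 to 5.20). The beta-glucosidase BGLU44 (AT3G18080) held 95 reads in the triple mutant and 16 in rdr6-11, and 21 in the double mutant and 13 in Col-0.

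Of the members with a role in the plastid, TPP (AT2G30440), the peptidase that removes thylakoid transfer signals, held 54 reads in the triple mutant and 4 in rdr6-11, and 43 in the double mutant and 3 in Col-0 (18.6-fold, 5.97 to 93.9). The signal recognition particle subunit cpSRP43 (AT2G47450, listed as CAO), which delivers light-harvesting proteins to the thylakoid, held 62 reads in the triple mutant and 9 in rdr6-11, and 24 in the double mutant and 6 in Col-0 (5.20-fold, 2.07 to 15.6). The electron carrier plastocyanin (AT1G20340, PETE2, listed as DRT112) held 91 reads in the triple mutant and 14 in rdr6-11, and 51 in the double mutant and 26 in Col-0 (2.55-fold, 1.56 to 4.26). PETC (AT4G03280), the Rieske protein of the cytochrome b6f complex, held 52 reads in the triple mutant and 10 in rdr6-11, and 13 in the double mutant and 8 in Col-0 (2.11-fold, 0.812 to 5.88). Plastocyanin and PETC are the members among 54 listed photosynthesis genes, of which 53 were measured, 4 were higher in the triple mutant than in rdr6-11 and 1 in the double mutant than in the wild type. The median log2 fold of that list was 1.12 without RDR6 and 0.24 with it, beside 0.42 and 0.25 over 5402 loci with at least 10 reads in some library. The 5402 include organelle and noncoding loci, also where they stand beside the lists below. Over the 311 protein-coding loci with 50 reads in the triple mutant, a minimum that favours that library, the medians were 1.39 and 0.74.

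Of the other listed groups, aquaporins had 1 member among 7 measured, DELTA-TIP, and a median log2 fold of 1.59 without RDR6 and 1.25 with it. Housekeeping genes had 0 members among 11 measured (1.38 and 1.26), genes of cold, heat and defence 0 among 7 (2.22 and 2.07), and photorespiration and carbonic anhydrase genes 0 among 10 (1.25 and 0.85). The NLR immune receptor list had 0 members among 12 measured (1.07 and 1.04), and the decay and silencing list 0 among 6 (1.03 and 1.33). Of 33 measured miRNA target genes 0 were members, 2 were higher in the triple mutant than in rdr6-11 and 10 in the double mutant than in the wild type, with median log2 folds of 1.59 and 2.93. Over the 5402 loci, 45 were members, 118 were higher in the triple mutant than in rdr6-11 and 175 in the double mutant than in the wild type. TAS loci stood at 1.43 and -1.74.

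SPL1 (AT2G47070), a squamosa promoter-binding-like transcription factor, held 73 reads in the triple mutant and 12 in rdr6-11, and 29 in the double mutant and 12 in Col-0. BBX24 (AT1G06040, listed as STO), a B-box regulator of light responses, held 75 reads in the triple mutant and 14 in rdr6-11, and 12 in the double mutant and 6 in Col-0. The histone H2B gene HTB4 (AT5G59910) held 59 reads in the triple mutant and 14 in rdr6-11, and 9 in the double mutant and 7 in Col-0. All 3 stayed under 4-fold in the double mutant, and their ratios of folds held 1. Over the double mutant, the triple mutant was 4.43-fold higher at BBX24 (2.39 to 8.95) and 4.64-fold at HTB4 (2.29 to 10.7).

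The members were almost all protein-coding: 43 of 45, with 1 transcribed pseudogene and 1 long noncoding RNA. Of the 614 loci with 50 reads in the triple mutant, 311 were protein-coding, with organelle loci classed apart. Of the 70 loci higher in both contrasts 69 were, so the trait is not particular to the members. Among the members, the pseudogene AT1G05135 held the most reads in the triple mutant, 304, and 56 in rdr6-11 (5.44-fold, 4.08 to 7.36). It held 54 in the double mutant and 29 in Col-0 (2.42-fold, 1.51 to 3.94). It was highest in the triple mutant, and 12.0% of its 21-base words are repeated in the genome. The noncoding RNA AT1G53233 lies antisense to TCP3, a miR319-regulated leaf transcription factor, over 1525 bases. It held 60 reads in the triple mutant and 3 in rdr6-11, and 43 in the double mutant and 3 in Col-0. TCP3 itself, looked up after these values were seen, held 2 reads in the triple mutant and 0 in rdr6-11, and 20 in the double mutant and 2 in Col-0. The counts have no strand, so how reads of the shared bases were divided between AT1G53233 and TCP3 is not known. The uncharacterized genes AT5G28919 and AT5G28920 lie on opposite strands and overlap over 1737 bases. Their reads were nearly equal, 61 and 60 in the triple mutant, 2 and 4 in rdr6-11, 39 and 33 in the double mutant and 4 and 3 in Col-0, and they cannot be taken as separate sources. The uncharacterized AT1G35320 held 59 reads in the triple mutant and 4 in rdr6-11, and 13 in the double mutant and 6 in Col-0, and 22.7% of its 21-base words are repeated. AT2G45180, a lipid-transfer-type gene, held 56 reads in the triple mutant and 13 in rdr6-11, and 35 in the double mutant and 27 in Col-0. In all, 11 of the 45 overlap another annotated gene. Among the protein-coding members 23.3% do, beside 27.5% of all protein-coding loci. The median share of repeated 21-base words over the members was 1.57%.

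The members lie on all 5 chromosomes, 13, 7, 9, 8 and 8 on chromosomes 1 to 5. The 43 protein-coding members span a median of 2391 bases and have a median of 2 exons and a transcript of 2100 bases. The median over all 26712 protein-coding loci was 2108 bases, 4 exons and 1541 transcript bases, and over the 311 with 50 reads in the triple mutant 2177 bases, 3 exons and 1829 transcript bases. The 69 protein-coding loci higher in both contrasts had a median of 1 exon and 1951 transcript bases. A longer transcript can hold more reads, and its part in passing the minimum was not tested.

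Sites complementary to miRNAs were searched for in the members' annotated transcripts. Whether a site starts siRNAs was not tested, and both libraries of the fold over rdr6-11 carry the RDR6 mutation. The search took ungapped complementarity to 335 annotated mature miRNA sequences with a penalty of at most 3. A mismatch counted 1 and a G:U pair 0.5, doubled at miRNA bases 2 to 13. Such a site stood in 7 of 45 members, beside 5.41% of 26712 protein-coding transcripts and 10.9% of the 311 with 50 reads in the triple mutant. At ATL4, cpSRP43, AIR12 and AT1G35320 the match was to miR5021, whose sequence is a purine repeat and whose gene has no counts here. At AT1G53233 it was to miR414, whose gene held 0 reads in every library, and lay in a TGA repeat. At AT2G03750 it was to miR156h, whose gene held 1 to 3 reads in each library. The best site, in ATL4, and the site in ADC1, which matches the minor arm of a developmental miRNA, are shown 5′ to 3′ (RefSeq TAIR10.1). Capitals mark the miRNA seed, bases 2 to 8.
miR5021: tGAGAAGAagaagaagaaaa
ATL4 site, chr3:22255832-22255851, minus strand: tcttcttcttcttcttctct
miR172b-5p and miR172e-5p: gCAGCACCattaagattcac
ADC1 site, chr2:7151631-7151650, minus strand, coding: gagaatctttatggtgctgc
The ATL4 site has a penalty of 2 and lies in a CT repeat outside the coding sequence. The ADC1 site has a penalty of 3. The MIR172b locus (AT5G04275), which holds both arms of that miRNA, held 2227 reads in the triple mutant and 2499 in rdr6-11, against 447 in the double mutant and 3061 in Col-0. The MIR172e locus (AT5G59505) held 45 reads in the triple mutant and 47 in rdr6-11, against 40 in the double mutant and 74 in Col-0. A match of letters does not show cleavage.

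Set against the double mutant, the triple mutant was higher by the rule of size at 8 of the 45 loci, or 17.8%, beside 13.3% of 736 loci. It was lower at 0, beside 14.3%. A higher call needs 50 reads in the triple mutant, which all 45 have but not all of the 736. The 98 loci called higher all lie among the 614 that have them. The 8 were ERD6 (19.6-fold, 6.48 to 96.9), TCH3 (19.4-fold, 6.40 to 95.8), PEX6 (6.61-fold, 2.85 to 18.8), AT1G61100 (6.49-fold, 2.80 to 18.5), TCH4 (5.71-fold, 3.39 to 10.3), ATR2 (5.38-fold, 2.77 to 11.7), HTB4 and BBX24. The counting interval lay above 1 at 24 of the 45 and below 1 at 0, beside 57.8% and 18.2% of the 614 loci. The median log2 fold was 0.75, beside 0.76 over the 614. It was 1.56 for the 24 members under 4-fold in the double mutant over Col-0 and 0.15 for the 21 at least 4-fold there. Both libraries helped to choose the members, and a lower call needs 50 reads in the double mutant, which 3 members have, so these counts and medians are a description. The 70 loci higher in both contrasts had a median of -0.48.

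Between rdr6-11 and Col-0, the plants without decay mutations, 0 of 45 loci were called in either direction, beside 1.95% of 564 loci higher and 3.90% lower. A call needs 50 reads in the higher library, which all of the 564 have and AT1G05135 alone among the members has, so nothing can be read from the 0. The counting interval lay above 1 at 2 members, CYP83B1 and AT1G05135, and below 1 at 6, which were AT2G03750, TCH4, RD19, plastocyanin, ATR2 and AT2G45180, beside 26.1% and 17.3% of the 614 loci. The summed reads were 431 in rdr6-11 and 492 in Col-0, 1.24-fold lower in rdr6-11 (1.09 to 1.42). The membership rule favours loci that are low in rdr6-11, so the sum and these intervals are in part set by the choice of members.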

How the data were processed

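The table covers 4 small RNA libraries, 1 for each genotype label. The authors deposited a read count and an RPKM value (reads divided by locus length and by the size of the library) for each locus and library, per the file headers. The submitters' processing notes name CASAVA 1.8.2, BWA and TAIR9 but no roles for them. Strand use, size range and the handling of reads with several matches are not stated. Where 1 locus lay inside another by TAIR10.1 gene spans and held at least 20 reads, the inner often held more reads than the outer. This was so at 29 of 37 pairs on the same strand and 44 of 58 on opposite strands. Reads were thus not always counted at every locus whose span they lie in, and the rule used is not known. RPKM served to compare the authors' locus lengths between libraries, and folds come from the counts.

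Counts were scaled to the table total of each library, at which 1 read is worth 1.14 RPM in the triple mutant, 1.14 in rdr6-11, 1.61 in the double mutant and 1.24 in Col-0. The design allows no test. A locus was called at a fold of at least 4 with 1 read added and at least 50 reads in the higher library. Median folds and the folds of loci named as just inside or outside the threshold carry the added read. Other single folds and summed folds do not, and have exact conditional (Clopper-Pearson) 95% intervals. The ratio of 2 folds has an exact conditional interval, or a normal one on the log scale where all 4 counts reach 50. Annotation and sequences are from RefSeq TAIR10.1, to which 32835 loci matched by identifier. The members and lists were chosen with earlier results of these data known. The rule for named loci took the 15 members of largest fold, the 10 of largest RPM gain, the 5 of smallest fold, the 5 with fewest reads in the triple mutant, the 5 highest and 5 lowest folds of the double mutant over Col-0, list members and noncoding members, with the 5 loci closest below 4-fold and the 7 left out by name. The remaining members were named so that each is accounted for. Alternatives changed the scaling (among them TMM of edgeR 4.0.16), the minimum, the fold, the pseudocount and the loci kept. Python 3.11.15, SciPy 1.17.1 and R 4.3.3 were used. The rule was also run on simulated counts. The loci changed there had more expected reads in rdr6-11 than most members held, so that run does not cover the members.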

Additional observations from a re-analysis of the deposited data

Results flagged for a closer look

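At 6 of the 45 loci the decay mutations went with fewer RPM where RDR6 was present and with at least 4-fold more where it was mutated, and the difference was not tested between replicates. The level of ein5-1 ski2-3 relative to Col-0 was 0.163 at TCH3, 0.217 at ERD6, 0.433 at ATR2, 0.488 at AT1G61100, 0.771 at TCH4 and 0.805 at AT3G04210. Their reads in ein5-1 ski2-3 ran from 3 to 16, and a level below that of Col-0 was found at 55.9% of the 614 loci with 50 reads in the triple mutant.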

How the results depend on the processing

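The 45 loci became 79 with miRNA-gene reads as the scale, and 40, 39 and 37 with median-of-ratios, TMM and totals without small RNA and organelle classes. They became 170, 14 and 2397 with a minimum of 20, 100 and 1 reads (24 and 5 of the 45 kept at 20 and 100), 130 at 2-fold and 25 at 8-fold. With settings chosen after the data were seen, 32 remained under a minimum scaled to depth for the exclusion, 24 with no minimum there, and 20 with the triple mutant scaled down to the double mutant's depth. Loci higher in the triple mutant than in rdr6-11 numbered 380, 45 and 3431 at those minimums, 219 at 2-fold and 70 at 8-fold, against 118; those higher in the double mutant than in the wild type numbered 429, 86 and 3103, against 175. The summed fold over rdr6-11 was 7.17, 6.84, 12 and 6.23 under median-of-ratios, TMM, miRNA reads and reduced totals, against 8.21. Over Col-0 it was 3.15, 2.92 and 2.48 under the first, second and last of these, and 1.8 for the members under 4-fold, against 3.59. The median log2 fold over rdr6-11 was 2.56 (median of ratios), 2.49 (TMM), 2.36 (reduced totals) and 2.36 (pseudocount of 5 reads), against 2.76. Over Col-0 it was 1.30 (TMM), 1.07 (reduced totals) and 1.14 (members under 4-fold), against 1.60. Scaling to miRNA reads, which shifts the triple mutant over the double mutant by 0.78, gave 1.54 for that median, against 0.75, and turned rdr6-11 over Col-0 to 0.08, against -0.12. Intervals of the ratio of folds above 1 numbered 18 to 23 members under the 4 scalings, beside 44.0% to 62.2% of loci. No paired analysis was possible because each genotype has 1 library. Reads of 3 to 57 in the double mutant limit what can be said of any single locus.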
